A study of Mus musculus with 4 samples.

Results

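Interleukin 17A and the genes named with it in Th17 cells were followed over 4 populations of mouse effector T helper cells sorted by CD30, a costimulatory receptor related to those for TNF. The genes were the cytokine genes Il17a and Il21 and the transcription factor genes Rora, Maf and Ahr. They are 5 of the 18193 genes that had a probe set of their own on the array, and every probe set annotated to them was taken, 20 of 45037. The groups were Th17 CD30high, Th17 CD30low, Th1 CD30high and Th1 CD30low cells, with 1 array each. All came from splenic CD4 T cells cultured for 6 days before the sort. Th17 cultures held IL-6, IL-1beta and IL-23 (10 ng/ml each) with antibodies to IL-4 and IFN-gamma (10 µg/ml each). Th1 cultures held an IL-2 supernatant (30 U/ml), IL-12 (100 U/ml) and an antibody to IL-4 (1 µg/ml). By the methods, naive cells that carried a transgenic T cell receptor for an ovalbumin peptide were stimulated with that peptide and irradiated splenocytes; which of 2 transgenic strains gave the RNA is not given in the sources used here, and the methods give a single age range, in weeks, for all mice.

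Th17 cells are helper T cells of mucosal defence and of several inflammatory diseases, and they are named for the secretion of IL-17A, which makes epithelial cells recruit neutrophils. Naive cells enter this lineage when IL-6 acts through STAT3, and IL-21 made by the cells themselves signals through the same route. The nuclear receptor RORα, encoded by Rora, shares the task of switching on Il17a with the related RORγt. c-MAF supports IL-21 and IL-10 production in several helper lineages, and the aryl hydrocarbon receptor, encoded by Ahr, is a ligand sensor that in Th17 cells promotes IL-22.

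The members lie on separate chromosomes of the GRCm38.p6 assembly, Il17a at chr1:20730905-20734496, Il21 at chr3:37222759-37232636, Rora at chr9:68653404-69388246, Maf at chr8:115703253-115706894 and Ahr at chr12:35497979-35534989. RefSeq promoters, 300 bases from 250 before to 50 after an annotated start, were at hand for Il17a, Il21 and Rora but not for Maf and Ahr. The genes shown are thus set by the sequences available. They are also the members with a probe set past the fold rule between the CD30 sorts of Th17 cells. Capitals mark matches on either strand to the ROR element AGGTCA, the MAF element TGCTGA, the AHR core GCGTG or the STAT site TTCNNNGAA.
Il17a (chr1:20730655-20730954, plus strand): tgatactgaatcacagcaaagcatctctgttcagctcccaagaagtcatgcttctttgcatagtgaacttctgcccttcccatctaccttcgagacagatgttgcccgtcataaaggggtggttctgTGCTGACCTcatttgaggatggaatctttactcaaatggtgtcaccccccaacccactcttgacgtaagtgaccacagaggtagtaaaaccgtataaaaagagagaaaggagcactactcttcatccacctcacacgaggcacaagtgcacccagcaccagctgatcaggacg
Il21 (chr3:37232587-37232886, minus strand): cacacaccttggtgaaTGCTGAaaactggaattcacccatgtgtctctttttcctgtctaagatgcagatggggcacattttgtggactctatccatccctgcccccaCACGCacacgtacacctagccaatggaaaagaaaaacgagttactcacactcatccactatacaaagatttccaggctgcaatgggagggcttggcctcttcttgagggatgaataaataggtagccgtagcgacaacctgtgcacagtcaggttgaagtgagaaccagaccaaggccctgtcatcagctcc
Rora (chr9:68653536-68653835, plus strand): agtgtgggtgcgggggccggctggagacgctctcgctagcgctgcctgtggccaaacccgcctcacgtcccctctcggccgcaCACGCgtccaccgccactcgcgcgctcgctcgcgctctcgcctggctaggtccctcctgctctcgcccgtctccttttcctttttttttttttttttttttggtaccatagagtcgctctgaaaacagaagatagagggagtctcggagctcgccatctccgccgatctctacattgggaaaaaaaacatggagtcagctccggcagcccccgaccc
In Il17a the MAF element began at position -123 from the start and overlapped the ROR element on the other strand, which began at -120. The Il21 promoter held the MAF element at -234 and the AHR core at -142, and that of Rora held the AHR core at -167. No promoter of the 3 held the STAT site. Such letters are common. Of 32851 mouse promoters, 16.3% held the ROR element, 19.5% the MAF element, 32.4% the AHR core and 8.3% the STAT site, so a match is a description of these windows only.

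Values are probe set signals on a linear scale, with signals below 100 set to 100 before a ratio was taken. A probe set was past the fold rule, or called, when 2 arrays differed at least 2-fold and the brighter one reached a signal of 300. With 1 array per group there was no replicate error and no p-value for any difference. The only spread at hand was technical. Among pairs of probe sets that measure the same gene, the SD of a log2 ratio per probe set was 0.22 for CD30high over CD30low Th17 cells, 0.25 for the same ratio in Th1 cells and 0.31 to 0.33 between the lineages, over 3500 genes. Of the 20 member probe sets, 14 reached 300 on at least 1 array, 1 reached 100 but not 300, and 5 were below 100 on all arrays. Those 5 were 3 probe sets of Rora and 1 each of Maf and Ahr.

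The arrays were alike in overall signal, with medians of 62 to 86 and 29 to 30.2% of probe sets at 300 or more. Tnfrsf8, the gene of CD30, was dim, with 132 in CD30high and 34.9 in CD30low Th17 cells and 51.1 in CD30high and 13.3 in CD30low Th1 cells. The labels give the starting cells as CD62Lhi for CD30high and CD62Llow for CD30low samples, where the methods describe CD62L-high naive cells throughout, so sort and starting cells cannot be told apart if the labels hold. The Y-linked genes Eif2s3y, Kdm5d and Uty were at 2.31 to 9.39 in CD30high and 1.41 to 21.8 in CD30low Th17 cells, against 309.6 to 1640.0 in CD30high and 398 to 1784 in CD30low Th1 cells. Each of the Xist probe sets was brighter in Th17 than in Th1 cells, but all were above 300 in Th1 cells too. The brightest had 22613 in CD30high and 22350.0 in CD30low Th17 cells, against 16222 in CD30high and 14620.4 in CD30low Th1 cells. The Th1 arrays thus held both Xist and Y-linked signal. Lineage and the sex-linked content of the material therefore cannot be told apart in any Th17 to Th1 ratio below. As these are bulk samples, fewer cells of a type and less RNA per cell cannot be told apart either.

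Il17a was the member that differed most between the CD30 sorts of Th17 cells. Its single probe set, 1421672_at, had a signal of 14443 in CD30high and 1398 in CD30low Th17 cells, against 49.4 in CD30high and 37.7 in CD30low Th1 cells. Both Th17 arrays were bright and both Th1 arrays were below the floor of 100, where values have no order. The difference between the Th17 sorts was 10.3-fold (log2 ratio 3.37), the sixth highest ratio of the 14030 probe sets that reached 300 in this comparison. Against Th1 cells of the same sort, Il17a was at least 144-fold higher in CD30high Th17 cells, and in CD30low Th17 cells at least 14-fold higher. Both are bounds set by the floor.

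Il21 encodes a cytokine that feeds back on Th17 cells and acts on B cells. It was higher in Th17 than in Th1 cells, and brighter in CD30high than in CD30low cells wherever its signal reached 100. Probe set 1450334_at had 6316 in CD30high and 3174 in CD30low Th17 cells, against 286 in CD30high and 105 in CD30low Th1 cells. Its 4 signals thus kept one order, with both Th17 arrays far above both Th1 arrays. Probe set 1447288_at had 2039 in CD30high and 501 in CD30low Th17 cells, against 57.2 in CD30high and 3.38 in CD30low Th1 cells. It gave the same order in Th17 cells and lay below 100 in both Th1 populations.

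The size of the CD30 difference in Il21 depended on the probe set. In Th17 cells it was 1.99-fold (log2 ratio 0.99) by 1450334_at, just short of the fold rule, and 4.07-fold (log2 ratio 2.02) by 1447288_at. The gap of 1.03 on the log2 scale was beyond the 0.65 under which 95% of such pairs of probe sets lay. In Th1 cells 1450334_at gave 2.72-fold, but its brighter signal did not reach 300. The CD30 difference in Th17 minus that in Th1 cells was -0.45 by this probe set, and 2.02 by the other, whose Th1 signals were both set to the floor. Which lineage had the larger Il21 difference between its CD30 sorts was thus not settled. Between the lineages both probe sets gave the same direction. In CD30high cells Il21 was 22.1-fold higher in Th17 than in Th1 cells by the first and at least 20.4-fold higher by the second probe set, and in CD30low cells 30.2-fold and at least 5.01-fold higher.

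Rora, the nuclear receptor gene, was brightest in CD30high Th17 cells, but how far it lay above CD30high Th1 cells depended on the probe set. Its brightest probe set, 1424034_at, had 2482 in CD30high and 951 in CD30low Th17 cells, against 1159 in CD30high and 963 in CD30low Th1 cells. The order was CD30high Th17 cells first, then the other 3. CD30high Th1 cells were above CD30low Th1 cells by a log2 ratio of 0.27, about the spread between probe sets, and the 2 CD30low populations differed by -0.02, so that order was not resolved. All 6 Rora probe sets that reached 300 were brightest in CD30high Th17 cells, and 5 of them were dimmest in CD30low Th17 cells.

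Those 6 probe sets agreed closely on the CD30 difference in Th17 cells. The ratios ran over a narrow range of 2.3-fold to 2.75-fold (median log2 ratio 1.26, SD 0.10 over the 6), and all were past the rule. The second brightest, 1455165_at, had 1479 in CD30high and 623 in CD30low Th17 cells, and 792 in CD30high and 751 in CD30low Th1 cells. 1436325_at had 1605 and 697 in the same Th17 sorts, and 565 in CD30high and 553 in CD30low Th1 cells. In Th1 cells the 6 ratios were all above 1 but small, from 1.02-fold to 1.46-fold (median log2 ratio 0.38), and none was past the rule. The CD30 difference was larger in Th17 than in Th1 cells by 0.73 to 1.17 on the log2 scale in every one of them; without replicates this difference was not tested.

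The lineage ratio of Rora was different in the 2 sorts. Among CD30high cells all 6 probe sets were brighter in Th17 than in Th1 cells, from 1.17-fold to 2.84-fold, and 2 passed the rule. The smallest ratio, of 1458129_at (426 and 365, log2 ratio 0.23), was within the SD of 0.33 between probe sets. Among CD30low cells 1 was brighter and 5 were dimmer in Th17 cells, with log2 ratios from -0.50 to 0.33 and none past the rule. As probe sets of 1 gene share its RNA on each array, their number is not a number of replicates.

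**Figure D1:**
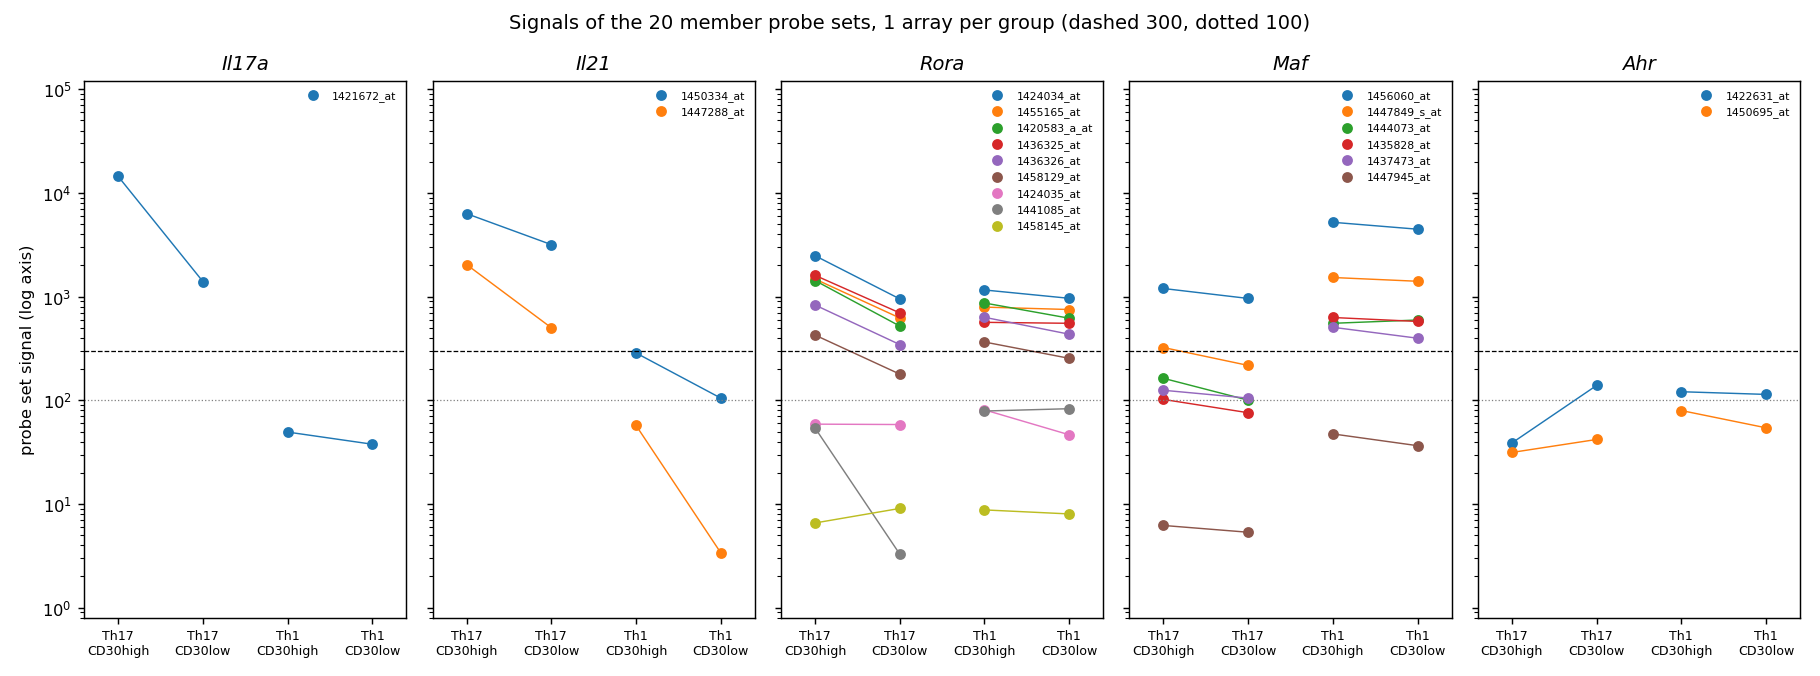
Signals of the 20 probe sets of Il17a, Il21, Rora, Maf and Ahr (y axis, log scale) in Th17 CD30high, Th17 CD30low, Th1 CD30high and Th1 CD30low cells (x axis), 1 array per group; points of one colour in a panel are 1 probe set, lines join the 2 sorts of a lineage, and the horizontal lines are at 300 (dashed) and 100 (dotted). Il17a was at 14443 in CD30high and 1398 in CD30low Th17 cells and below 100 in Th1 cells, while the 5 Maf probe sets that reached 300 were brighter in both Th1 than in both Th17 populations.

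Maf ran against the lineage it was listed with. Its brightest probe set, 1456060_at, had 1198 in CD30high and 960.3 in CD30low Th17 cells, against 5209.7 in CD30high and 4468 in CD30low Th1 cells. The next, 1447849_s_at, had 323 in CD30high and 217 in CD30low Th17 cells, against 1529 in CD30high and 1406 in CD30low Th1 cells. For all 5 Maf probe sets that reached 300, both Th17 arrays were below both Th1 arrays. The remaining one was below 100 throughout.

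Among CD30high cells, 5 of the 6 Maf probe sets were past the rule and lower in Th17 than in Th1 cells, by 3.39-fold to 6.19-fold. Among CD30low cells the same 5 were lower by 3.77-fold to 6.47-fold. The median log2 ratios were -2.12 and -2.53 (SD 0.32 over the 5 in each comparison). The CD30 sort made little difference. In Th17 cells the 5 ratios were between 1.02-fold and 1.63-fold and in Th1 cells between 0.93-fold and 1.28-fold, with none past the rule. The 3 probe sets 1444073_at, 1435828_at and 1437473_at were between 75.9 and 163 in Th17 cells, so their lineage ratios compare a clear Th1 signal of 397 to 629 with one near the floor.

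Ahr gave almost no signal. Probe set 1422631_at had 38.7 in CD30high and 139 in CD30low Th17 cells, against 121 in CD30high and 114 in CD30low Th1 cells. Of these, the value of CD30high Th17 cells lay below the floor and the other 3 just above it. Probe set 1450695_at was below 100 on every array, between 31.4 and 79.7. Neither reached 300, so no Ahr ratio could pass the rule. That 1422631_at was lower in CD30high than in CD30low Th17 cells (at least 1.39-fold) rests on signals at background, and the order of the Ahr levels in the 4 populations was not resolved by these arrays.

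Counted over the members, 8 of the 20 probe sets, from the 3 genes Il17a, Il21 and Rora, were higher and none lower in CD30high than in CD30low Th17 cells. Of the 20, 11 reached 300 in this comparison. Over all probe sets that reached 300, 3.54% were called higher and 3.99% lower. Of those 8, 6 are the probe sets of Rora. In Th1 cells none of the 11 that reached 300 was called, where 0.962% of all probe sets were called higher and 0.509% lower. In the CD30high sort, of 14 member probe sets that reached 300, 5 were higher and 5 lower in Th17 than in Th1 cells, against 4.72% and 7.9% of all. In the CD30low sort, of 13 that reached 300, 3 were higher and 5 lower, against 3.65% and 5.74% of all. The higher ones were those of Il17a and Il21, joined by 2 of Rora in the CD30high sort, and all the lower ones were those of Maf. The median log2 ratio of all probe sets that reached 300 was between -0.02 and 0.00 in the 4 comparisons.

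**Figure D2:**
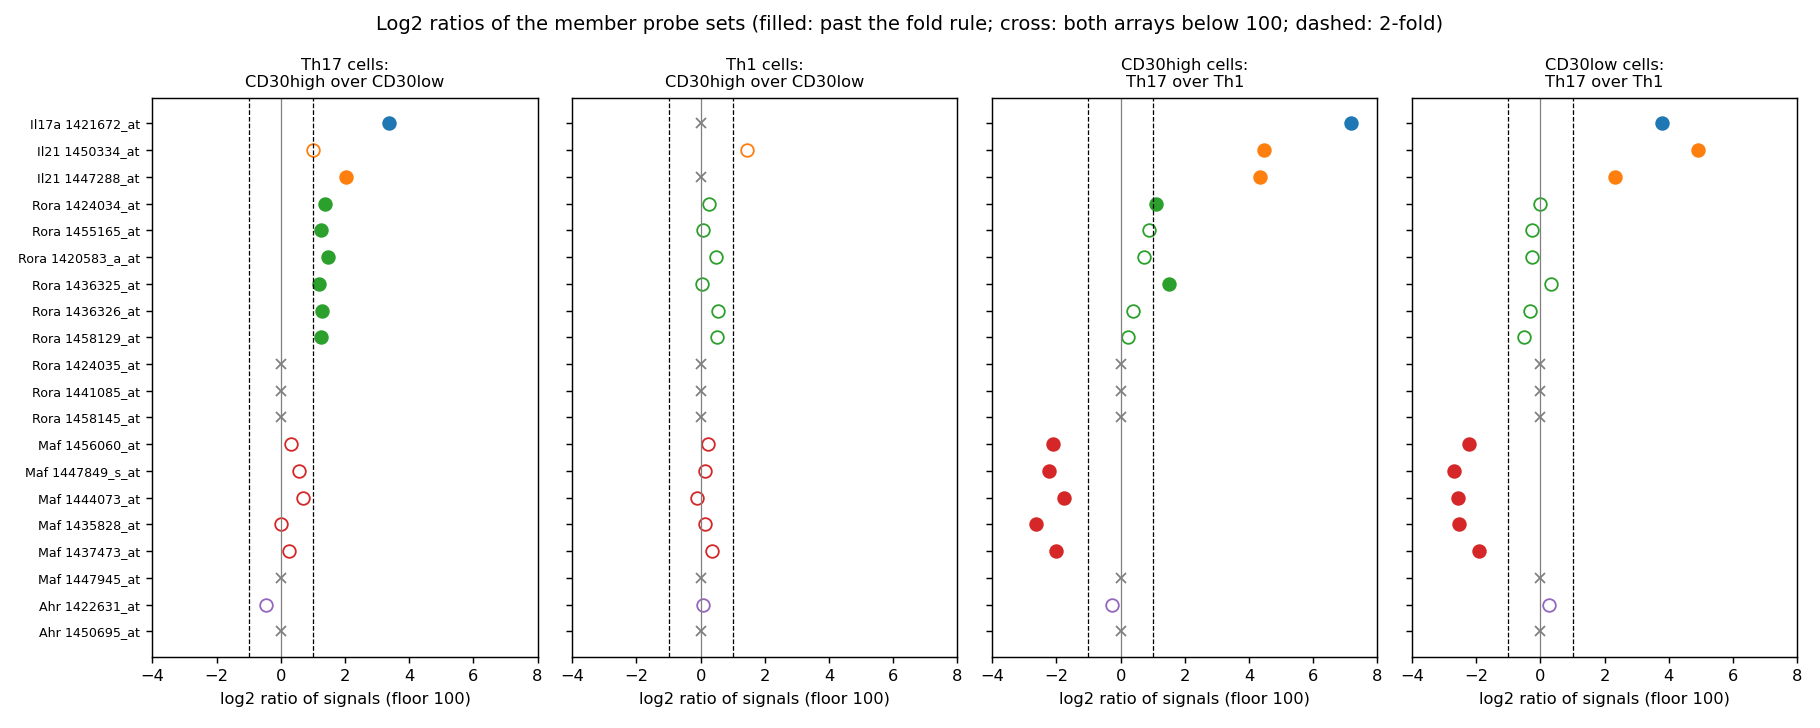
Log2 ratios of signals (x axis, floor of 100) of the 20 member probe sets (y axis) in the 4 comparisons, 1 array per group; filled points are past the fold rule, open points are not, crosses have both arrays below 100, and dashed lines mark 2-fold. The 6 brighter Rora probe sets lie between 1.20 and 1.46 in the first panel, and the Maf points lie between -2.69 and -1.76 in the last 2 panels.

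Genes with the 4-array pattern most like that of each member were sought among 8226 genes, by the distance between log2 signals centred on their mean. With 4 arrays such likeness is a description only. Nearest to Il17a were Lum (distance 1.00), a small proteoglycan gene, Crispld2, the cytokine gene Lif, Marcksl1 and Cd24a (1.86). Lum had 6697 in CD30high and 768 in CD30low Th17 cells, and 63.3 in CD30high and 33.1 in CD30low Th1 cells. In the CD30high sort the Th17 to Th1 log2 ratio was at least 7.17 for Il17a and at least 6.07 for Lum, both against Th1 signals under the floor.

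Nearest to Il21 was Tgm2 (distance 0.52), the gene of transglutaminase 2, which cross-links proteins. Tgm2 had 23867 in CD30high and 11421 in CD30low Th17 cells, against 1635 in CD30high and 420.4 in CD30low Th1 cells. Its log2 ratios between the sorts were 1.06 in Th17 and 1.96 in Th1 cells, where 1450334_at of Il21 had 0.99 and 1.45. Lif, Cpd, Marcksl1 and Cd24a followed at distances of 0.82 to 1.17.

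Rora had much closer company, with St6galnac6 and Atp9a at a distance of 0.09 and Fam229b, Slc39a6 and Creb3l2 at up to 0.19. St6galnac6, a sialyltransferase gene, had 1110.3 in CD30high and 443 in CD30low Th17 cells, and 511 in CD30high and 459 in CD30low Th1 cells. Slc39a6 encodes a zinc transporter and Creb3l2 a membrane-bound transcription factor. Nearest to Maf were H2-Oa (0.16), a chaperone gene of class II antigen presentation, Tmem163, Il10, Cav2 and Fcgr3 (0.33). Il10, the gene of an anti-inflammatory cytokine, had 34.7 in CD30high and 67.2 in CD30low Th17 cells, against 522 in CD30high and 487 in CD30low Th1 cells. Ahr was left out of this search because it did not reach 300.

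**Figure D3:**
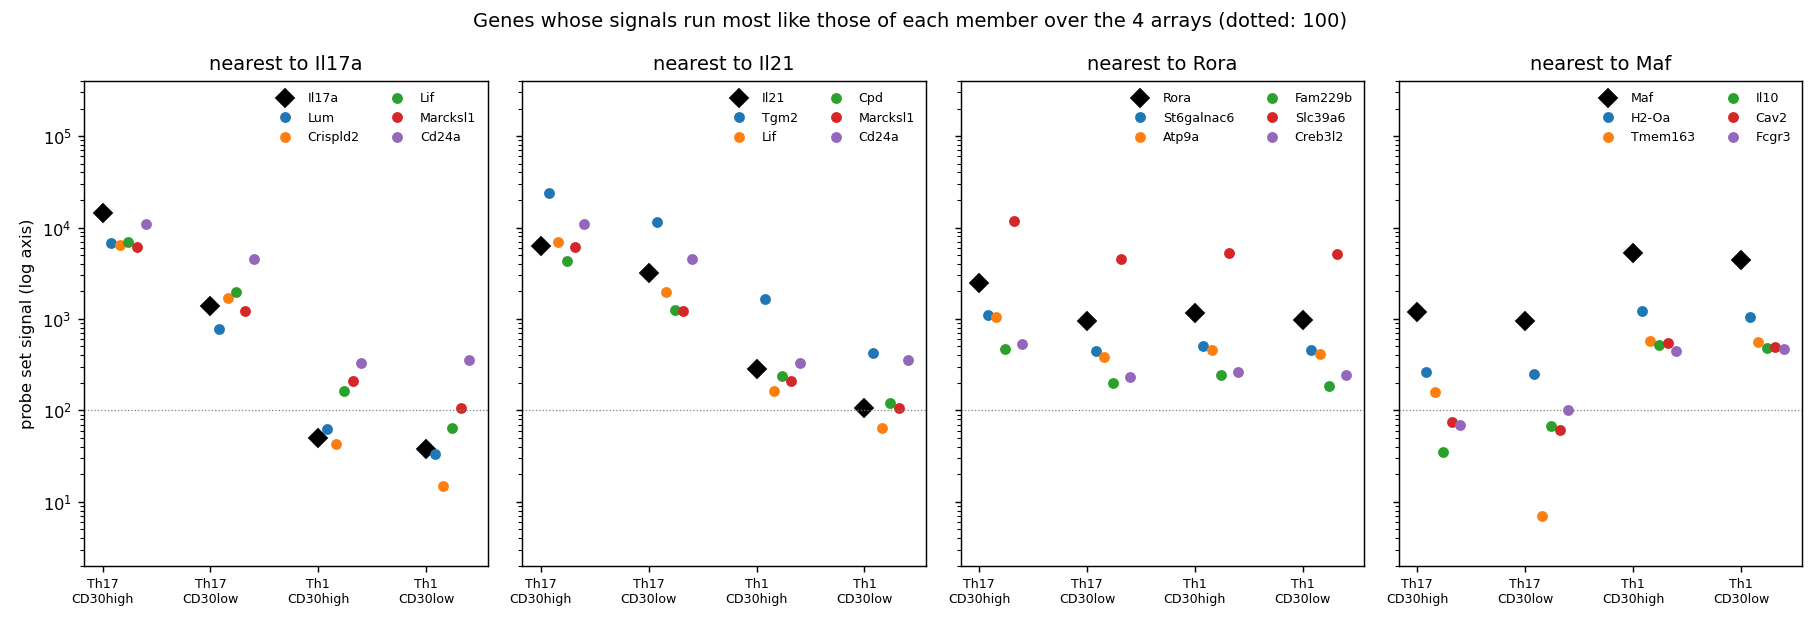
Signals (y axis, log scale) of the brightest probe set of Il17a, Il21, Rora and Maf (diamonds) and of the 5 genes nearest to each in pattern (circles) in the 4 populations (x axis), 1 array per group; the dotted line is at 100. Tgm2, nearest to Il21, was highest in CD30high Th17 cells (23867) and lowest in CD30low Th1 cells (420.4), the order that Il21 also had.

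Other genes of the Th17 pathway were taken from lists and counted by the brightest probe set of each gene. The cytokines IL-17F and IL-22, the receptor chain IL-23R and the factor RORγt, which with Il17a and Ccr6 define the lineage, were not analysed here. Of the other cytokine genes, 4 of 8 entries were named. None of the 4 reached 300 in Th17 cells, so no call between the Th17 sorts was possible. In Th1 cells only Il10 reached 300, and it was not called between the sorts. Over all genes that reached 300, 0.794% were called higher and 0.486% lower between the Th1 sorts. Il10 was called lower in Th17 than in Th1 cells in both sorts. Csf2, the gene of GM-CSF, had 135 in CD30high and 205 in CD30low Th17 cells, against 75.2 in CD30high and 200.3 in CD30low Th1 cells, while Il9 and Ccl20 were below 100 on all arrays.

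Among 12 Th17 transcription factors and cofactors, 3 were higher and 1 was lower in CD30high than in CD30low Th17 cells. Over all genes that reached 300, 3.94% were called higher and 3.66% lower. Irf4, which acts with BATF at Th17 genes, had 7634 in CD30high and 2929 in CD30low Th17 cells, and Rbpj, the nuclear partner of Notch, had 7031 and 3124. A second, dim Irf4 probe set was below 300 throughout. It had 212 in CD30high and 145 in CD30low Th17 cells, against 193 in CD30high and 168 in CD30low Th1 cells. Sox5, a factor known to act with c-MAF in Th17 cells, had 619 in CD30high and 154 in CD30low Th17 cells, against 3.91 in CD30high and 19.5 in CD30low Th1 cells. The lower one was Nfkbiz, the gene of an NF-kappaB cofactor that promotes Il17a, with 1669.8 in CD30high and 4275 in CD30low Th17 cells. Hif1a, which supports glycolysis and RORγt activity, was between 25436 and 27166 on all arrays by its brightest probe set, but the probe sets disagreed between the lineages. A dimmer one had 3004 in CD30high and 2290.2 in CD30low Th17 cells, against 1307 in CD30high and 1104 in CD30low Th1 cells, past the rule in both sorts and not in the count of this list. Bhlhe40 had 8482 in CD30high and 4941 in CD30low Th17 cells and was not called. The list's median log2 ratio was 0.43, where that of all genes reaching 100 was 0.02.

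In Th1 cells no factor of this list was called (median log2 ratio 0.23), against 0.794% higher and 0.486% lower over all genes. Between the lineages, 5 were higher in Th17 than in Th1 cells of the CD30high sort and 4 in the CD30low sort, with none lower, against 4.98% and 3.53% of all genes called higher and 6.86% and 5.83% called lower. By the brightest probe set of each, Irf4, Nfkbiz, Fosl2 and Junb were called in both sorts and Sox5 in the CD30high sort. The dim Irf4 probe set had lineage log2 ratios of 0.13 in the CD30high and -0.21 in the CD30low sort. Fosl2 and Junb, subunits of AP-1, are named here after their values were seen.

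Receptors for the cytokines that induce Th17 cells, listed together with the chemokine receptor Ccr6, did not move one way. Of 8 named, 2 were higher and 1 was lower in CD30high than in CD30low Th17 cells (median log2 ratio -0.20). The shares over all genes that reached 300 were 3.94% higher and 3.66% lower. Il1r1, a receptor gene of IL-1, did not reach 300 and could not be called. It had 259.9 in CD30high and 90.6 in CD30low Th17 cells (at least 2.6-fold), against 7.5 in CD30high and 3.98 in CD30low Th1 cells. Il12rb1, a chain shared by the receptors of IL-12 and IL-23, had 657 in CD30high and 223 in CD30low Th17 cells, against 685 in CD30high and 433 in CD30low Th1 cells. Ccr6, the chemokine receptor of the lineage, had 333 in CD30high and 136 in CD30low Th17 cells, against 172 in CD30high and 49.2 in CD30low Th1 cells.

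Il6st, the signalling chain of the IL-6 receptor, was the one called lower, and it was lower in the CD30high sort of both lineages. It had 62.8 in CD30high and 361 in CD30low Th17 cells, against 386 in CD30high and 777 in CD30low Th1 cells, so it was at least 3.61-fold lower in CD30high Th17 cells and 2.01-fold lower in CD30high Th1 cells. A second probe set went the same way, with 86.5 and 275 in the same Th17 sorts and 281 and 570.4 in CD30high and CD30low Th1 cells, and the other 2 were near or below 100. Il6ra, the ligand-binding chain, had 745 in CD30high and 1218 in CD30low Th17 cells, against 231 in CD30high and 267 in CD30low Th1 cells, and was called higher in Th17 cells of both sorts. Its second, dimmer probe set did not show this. It had 186 in CD30high and 179.6 in CD30low Th17 cells, against 177 in CD30high and 168 in CD30low Th1 cells. The TGF-beta receptor genes Tgfbr1 and Tgfbr2 were not called between the CD30 sorts. With Il6st, they were the 3 receptors lower in Th17 than in Th1 cells of the CD30high sort, and in the CD30low sort Il6st and Tgfbr2 were lower. Of all genes, 6.86% were called lower in the CD30high and 5.83% in the CD30low sort.

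**Figure D4:**
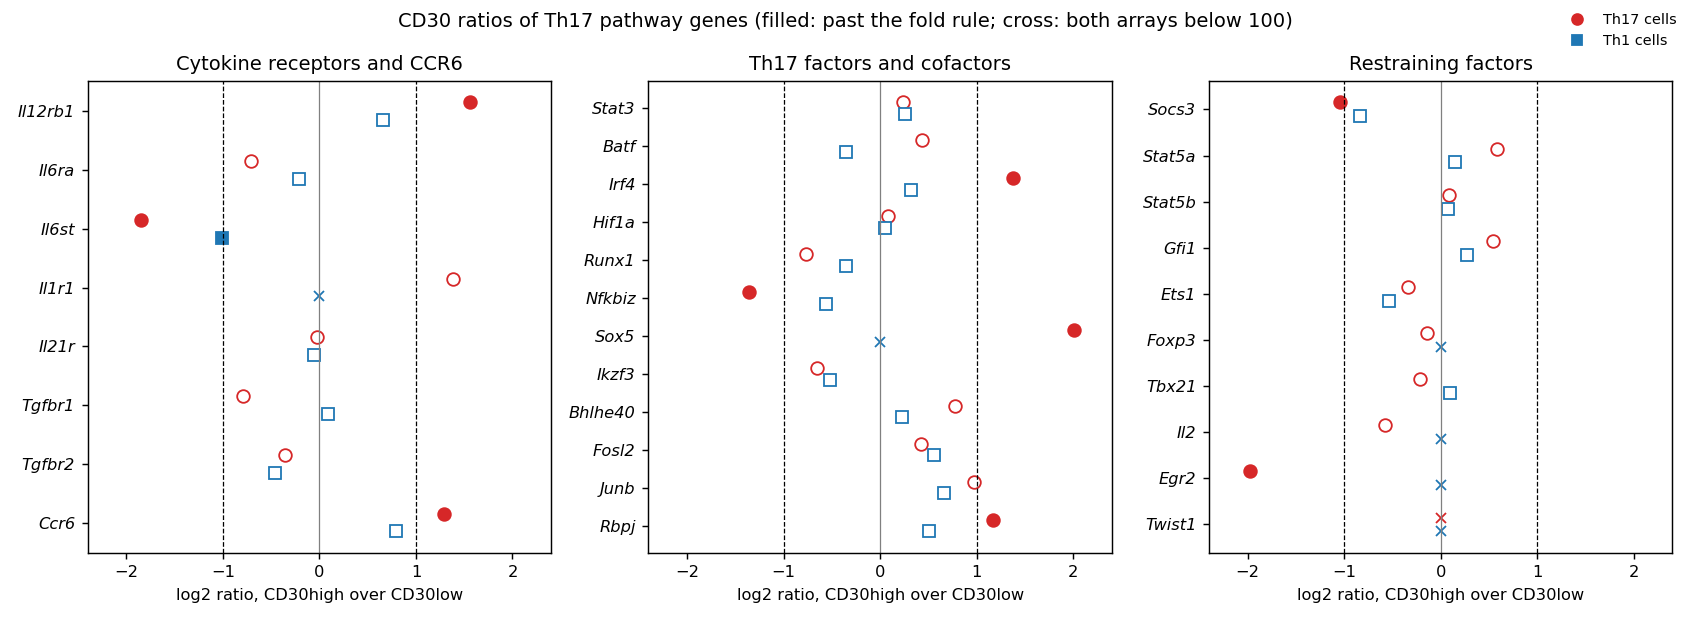
Log2 ratios of CD30high over CD30low signals (x axis, floor of 100) of genes of 3 lists (y axis) in Th17 cells (circles) and Th1 cells (squares), 1 array per group, by the brightest probe set of each gene; filled symbols are past the fold rule, crosses have both arrays below 100, and dashed lines mark 2-fold. Irf4, Sox5, Rbpj, Il12rb1 and Ccr6 are filled on the right for Th17 cells, and Il6st is filled on the left for both lineages.

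Of 10 factors known to restrain Th17 differentiation, 2 were lower and none was higher in CD30high than in CD30low Th17 cells (median log2 ratio -0.21). Foxp3, Tbx21, Il2 and Twist1 were below 300 in both Th17 sorts and could not be called. Over all genes that reached 300, 3.66% were called lower and 3.94% higher. Socs3, the feedback inhibitor of STAT3, had 7716 in CD30high and 15897 in CD30low Th17 cells, against 3522 in CD30high and 6282 in CD30low Th1 cells. Egr2 had 131 in CD30high and 519 in CD30low Th17 cells and was below 100 in Th1 cells. Ets1, Gfi1 and Stat5b were bright and not called in any comparison. In Th1 cells none of the list was called, against 0.794% higher and 0.486% lower over all genes that reached 300. There Foxp3, Il2, Egr2 and Twist1 were below 300 in both sorts and could not be called. Between the lineages Socs3 was higher in Th17 cells of both sorts, Egr2 was higher in those of the CD30low sort, and Tbx21 was lower in both.

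Most target genes of AHR in the list were near or below 100, with Tiparp as the exception. Of 7 genes of AHR partners and targets, none was called in any comparison. Cyp1a1, Cyp1b1, Nqo1 and Ahrr did not reach 300 on any array and could not be called. Over all genes that reached 300, 0.486% to 6.86% were called per comparison and direction. The targets Cyp1a1, Cyp1b1 and Nqo1 were below 100 on all arrays, and Ahrr, the repressor gene that AHR induces, was between 61.7 and 119.6. Tiparp, which many signals induce, was between 1366 and 1789.7, the partner gene Arnt between 509 and 657, and the chaperone gene Hsp90aa1 between 18261 and 25332.

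Of 7 genes linked to MAF in T cells, counting Il21, only Sox5 was called between the CD30 sorts of Th17 cells and none between those of Th1 cells. Il4 and Il10 in Th17 cells, and Il4, Il21 and Sox5 in Th1 cells, were below 300 in both sorts and could not be called. The shares over all genes that reached 300 were 3.94% higher and 3.66% lower in Th17 cells, and 0.794% and 0.486% in Th1 cells. In both sorts Il10 and Prdm1 were lower in Th17 than in Th1 cells, as Maf was. Prdm1, the gene of BLIMP-1, had 536 in CD30high and 478 in CD30low Th17 cells, against 1525 in CD30high and 1449 in CD30low Th1 cells. Il21 was higher in both sorts. Icos, a costimulatory receptor gene, and Bach2 were not called in any comparison.

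The lineage labels were checked against Th1 genes, of which 6 of 8 were lower in Th17 than in Th1 cells in both sorts. Of all genes, 6.86% were called lower in the CD30high and 5.83% in the CD30low sort. Ifng had 76 in CD30high and 106 in CD30low Th17 cells, against 3423 in CD30high and 2506 in CD30low Th1 cells. Tbx21, the master factor of Th1 cells, had 243 in CD30high and 281 in CD30low Th17 cells, against 2352 in CD30high and 2189.8 in CD30low Th1 cells. With Il17a these values went the way of the labels.

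Markers of other cells moved with some of these results. The 4 T cell genes Cd3d, Cd3e, Cd3g and Cd4 were present on all arrays and summed to 24482 in CD30high and 35383 in CD30low Th17 cells, against 43712 in CD30high and 53859 in CD30low Th1 cells. The 6 myeloid and neutrophil genes summed to 2101 in CD30high and 7507 in CD30low Th17 cells, against 384 in CD30high and 251 in CD30low Th1 cells. Most of the Th17 sum came from S100a8 and S100a9, which were brighter in CD30low Th17 cells, where Il17a, Il21 and Rora were dimmer. Lyz2 went the same way, with 88.5 in CD30high and 231 in CD30low Th17 cells, and was below 100 in Th1 cells. Cd14 and Csf1r, which define monocytes, went the other way near the floor. They were at 104 and 130.1 in CD30high Th17 cells and below 100 on the other arrays. Itgam was below 100 in both Th17 sorts. The part of such cells in the Th17 differences was not tested.

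Innate-like and γδ T cells also make IL-17A. Of their 4 named markers, Sox13, Zbtb16 and Blk were below 100 on every array, and Cd163l1 had 88.8 in CD30high and 158 in CD30low Th17 cells, against 416 in CD30high and 419 in CD30low Th1 cells. The 4 CD8 and natural killer markers summed to 598 in CD30high and 857 in CD30low Th17 cells. In Th1 cells they summed to 4954 in the CD30high and 6986 in the CD30low sort, mostly from Klrd1 (4360.1 and 6199). In Th17 cells the largest part came from the CD8 gene Cd8b1, with 349.9 in CD30high and 390.4 in CD30low cells. Cd8b1 had 541 in CD30high and 703 in CD30low Th1 cells and was not called in any comparison. Klrd1 was called lower in CD30high (173) than in CD30low (355) Th17 cells. The 3 B cell markers summed to 264 in CD30high and 175 in CD30low Th17 cells, and to 277 and 175 in CD30high and CD30low Th1 cells. Cd8a, Ncr1 and Cd79a were below 100 throughout. Housekeeping genes were not called in any comparison, with a median log2 ratio of -0.11 between the sorts of Th17 cells and 0.00 between those of Th1 cells.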

How the data were processed

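RNA of 4 sorted populations, 1 array each, was labelled with biotin and hybridized to Affymetrix mouse genome arrays. The intensity values deposited by the authors are linear signals per probe set. Affymetrix Expression Console is named in the submitters' processing notes and the GeneChip Operating Software in the methods, and the sources used here do not give version, algorithm or scaling target. A mean without the lowest and highest 2% of signals was 496 to 497 on each array, so a change shared by most genes would not be visible.

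Symbols came from the platform annotation, matched to current names by gene identifier for 34741 of 34945 probe sets with a single symbol; 932 probe sets with several symbols and 9160 unnamed ones gave no gene. All probe sets of the members were used, and for other genes the one with the highest mean signal. Signals below 100 were set to 100. The fold rule (2-fold, brighter signal at least 300) takes its signal limit from a figure legend of the study; the fold limits in the study's legends vary, so 2-fold was a choice made here, and present calls were not applied. The code of the fold rule was run on simulated data in which only bright probe sets were changed, by well over 2-fold. That run tells nothing of calls near 2-fold or near a signal of 300. Without replicates no statistical test was run. The members and the 17 lists (120 entries, 26 not named in the annotation used here) were chosen with earlier results of these data known. From each list up to 6 genes were named, first those called between the CD30 sorts of Th17 cells, then the brightest; others were named after their values were seen. Promoter sequences are from RefSeq. Alternatives covered scaling, floor, fold and signal limits, and averaging of probe sets. Python 3.11.15, numpy 2.4.6, pandas 2.3.3 and matplotlib 3.10.9 were used. Precision is limited by having 1 array per group.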

Additional observations from a re-analysis of the deposited data

Results flagged for a closer look

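Some member probe sets had opposite signs of the same ratio in 2 groups; with 1 array per group none of these differences was tested. For 5 Rora probe sets the Th17 to Th1 ratio was above 1 among CD30high and below 1 among CD30low cells. On the log2 scale the ratio among CD30high cells exceeded that among CD30low cells by 1.12 for 1424034_at, 1.17 for 1455165_at, 0.97 for 1420583_a_at, 0.73 for 1436326_at and 0.73 for 1458129_at. For 1424034_at the CD30low ratio was -0.02, which is no difference at the precision of these probe sets.

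For Maf 1444073_at the CD30high to CD30low ratio was above 1 in Th17 cells (163 and 100.3) and just below 1 in Th1 cells (553 and 595), a difference of 0.81 on the log2 scale. The other Maf probe sets that reached 100 had ratios above 1 in both lineages. For Ahr 1422631_at the same difference was -0.55, and the Th17 to Th1 ratio among CD30high minus that among CD30low cells was by construction also -0.55; its signals lay between 38.7 and 139, near background.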

How the results depend on the processing

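The counts of member probe sets past the fold rule (8, 0, 10 and 8 in the 4 comparisons) were the same in number with median centring and quantile normalization. They were also the same with a floor of 50 and no floor, but lowering the floor could not change them. The signal limit of the rule is more than 2-fold above the floor of 100, so a bright signal paired with one under the floor was already called. With a limit of 3-fold, 2 instead of 8 were higher in CD30high than in CD30low Th17 cells, those of Il17a and Il21 1447288_at, because the Rora ratios lie under 3-fold. With a signal limit of 100, 1 instead of 0 was called between the Th1 sorts, Il21 1450334_at, higher in CD30high cells. With a signal limit of 600, 4 instead of 8 were called between CD30low Th17 and Th1 cells, 2 higher and 2 lower. Of 120 gene ratios under an alternative, 105 moved by less than the SD between probe sets, 15 moved by more and none of 2-fold or more reversed. Of the 12 gene ratios of 2-fold or more, all 56 alternatives kept the direction and 54 stayed at 2-fold or more. Part of these counts was fixed in advance. The brightest Il21, Rora and Maf probe sets were above 100 on all arrays, so changing the floor could not move their ratios. For Ahr the mean of the probe sets used only the one that reached 100. Without a floor the Ahr ratio of CD30high over CD30low Th17 cells was -1.84 instead of -0.47 (log2), from signals near background. With the mean of both probe sets the Il21 ratio between the Th17 sorts was 1.51 instead of 0.99, and its difference between Th17 and Th1 cells changed sign, to 0.79. No paired analysis was possible because each group had 1 array. Differences below the spread between probe sets, and any level under 100, are not resolved.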

Other observations

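Clock genes that ROR receptors are known to regulate were mostly not called. Of them, Nr1d1, Npas2 and Rorb did not reach 300 on any array and could not be called. Over all genes that reached 300, 0.486% to 3.94% were called per direction between the CD30 sorts. Among CD30high cells 4.98% were higher in Th17 than in Th1 cells. Of 6 named, none passed the rule between the CD30 sorts, and only Arntl, the gene of the clock factor BMAL1, was called higher in Th17 than in Th1 cells of the CD30high sort, with 908 in CD30high and 730.2 in CD30low Th17 cells, against 368 in CD30high and 462 in CD30low Th1 cells. Cry1, a clock repressor gene, had 1843 in CD30high and 1392 in CD30low Th17 cells, against 1162 in CD30high and 773 in CD30low Th1 cells, and Nr1d1 was below 100 on all arrays.

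The receptor chain gene Il17ra, through which IL-17A signals, had 1466 in CD30high and 2706 in CD30low Th17 cells, against 3093 in CD30high and 3884 in CD30low Th1 cells. It was called lower in Th17 than in Th1 cells of the CD30high sort and in no other comparison. The partner chain gene Il17rc was below 100 on all arrays.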
